A study of Ocimum americanum with 4 samples.

Results

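Chlorophyll and heme share a common origin. Plants build 5-aminolevulinate from glutamate in the plastid, join it into a ring, and carry that ring through a common series of steps to protoporphyrin IX. There the pathway splits, with magnesium leading to chlorophyll and iron to heme, and heme in turn gives the bilin pigment of phytochrome. Several intermediates are strong photosensitizers when free in the light, and in model plants synthesis is tightly controlled at the formation of 5-aminolevulinate and at the insertion of magnesium.

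The unigenes described here are those that the annotation places in the KEGG pathway for porphyrin and chlorophyll metabolism. Of the 42816 assembled unigenes, 47 carry this pathway. Leaving out 2 glutamate-tRNA ligases, which also charge tRNA for protein synthesis, gave 45 unigenes for 28 enzymes. Every unigene is named by its best match in Swiss-Prot, which is a protein of another species (*Arabidopsis thaliana* for 21, tobacco for 9, cucumber for 5), so a name is a likeness and not a proven function. The rule uses the annotation alone and no measured value, but it was chosen with earlier results of these data known. The study had already listed this pathway as enriched among its changed genes.

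Leaves were taken from 30-day-old plants of *Ocimum americanum* var. *pilosum*, a chilling-sensitive basil, and their RNA was sequenced. Control plants remained at 22 °C and chilled plants were held for 12 h at 4 °C, under a day of 16 h light and 8 h dark in both cases. In the sample labels the growth temperature is 21 °C instead, and the hour of leaf collection is not given in the sources used here. Each treatment has 2 libraries, described in the study as biological replicates, for 4 in all. How many plants entered a library was not given in the sources used here, and no other time, temperature, variety or tissue was included.

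Levels are FPKM, the fragments of a unigene scaled by its length and by the fragments of the library, as deposited. Because FPKM is scaled by length, levels of different unigenes can be set side by side. A change is given as the difference of log2(FPKM + 1), chilling less control, with its standard error (SE). It was tested with limma over the 33036 unigenes whose FPKM averaged 1 or more. To be called higher or lower, a unigene needed an adjusted p of 0.01 or less and mean levels that differed 2-fold or more. Read counts did not enter the comparison, and how many reads stand behind a value is unknown.

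The summed FPKM of all unigenes was 875599 and 874864 in the control libraries and 773457 and 772255 in the chilling libraries, and no library stood apart from its partner. Markers of leaf tissue were high in all 4 libraries: the Rubisco small subunit RBCS (Ob_31465) lay at FPKM 13829 and 13824 in the control and 10256 and 10265 after chilling. Over 20 unigenes of leaf mesophyll markers, the summed FPKM averaged 34996 in the control and 21512 after chilling. The sum was 364 and 245 for 12 epidermal unigenes, 52.5 and 29.8 for 5 of guard cells, 464 and 434 for 7 of glandular trichomes, 175 and 179 for 7 of xylem, 68.1 and 91.0 for 8 of phloem, and 23.1 and 39.3 for 6 of root. No unigene of these lists was at 0 in every library. The part of these differences in the results that follow was not tested, and in whole leaves fewer cells of a type and less RNA per cell cannot be told apart.

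After chilling, summed transcripts of the chlorophyll branch were much lower. Those of the common steps, which lead to both chlorophyll and heme, were lower too. Transcripts of the heme branch itself changed little. Those of the chlorophyll b reductase NYC1 and of chlorophyllase were higher. Of the 45 unigenes, 43 were abundant enough to test, 15 were called lower and 4 higher. Over all 33036 tested unigenes 25.6% were called, 13.8% lower and 11.9% higher. After rescaling every library to TPM, a unit with a common total, 13 members were lower and 4 higher, beside 26.4% called over all tested unigenes, 11.1% lower and 15.3% higher. The 15 lower calls all lay in the common steps or in the chlorophyll branch, where 28 of 30 unigenes were tested and none was called higher. The 4 higher calls comprised 3 of the 6 unigenes of chlorophyll turnover and breakdown and 1 of 6 of the heme branch.

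The members were also more abundant than most unigenes, with a median FPKM of 68.4 against 6.01 over all tested unigenes. Among the 35 members that averaged FPKM 10 or more, 15 were called lower and 3 higher, beside 21.6% called among all unigenes of that level, 11.2% lower and 10.4% higher. The median log2 change was -0.47 for the members and -0.004 for all tested unigenes. Large falls made up much of the difference: 10 members fell at least 4-fold and 5 at least 10-fold, while 6.19% and 2.34% of all tested unigenes did so. The control and chilling libraries did not overlap for 40 of the 43, lower in 29 and higher in 11. Of all tested unigenes 82% were separated in this way, 40.3% lower and 41.7% higher, so the separation alone says little about these genes. A further 13 members had an adjusted p of at most 0.01 from limma but changed by less than 2-fold, and 17 of the 43 stayed within 1.5-fold.

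**Figure D1:**
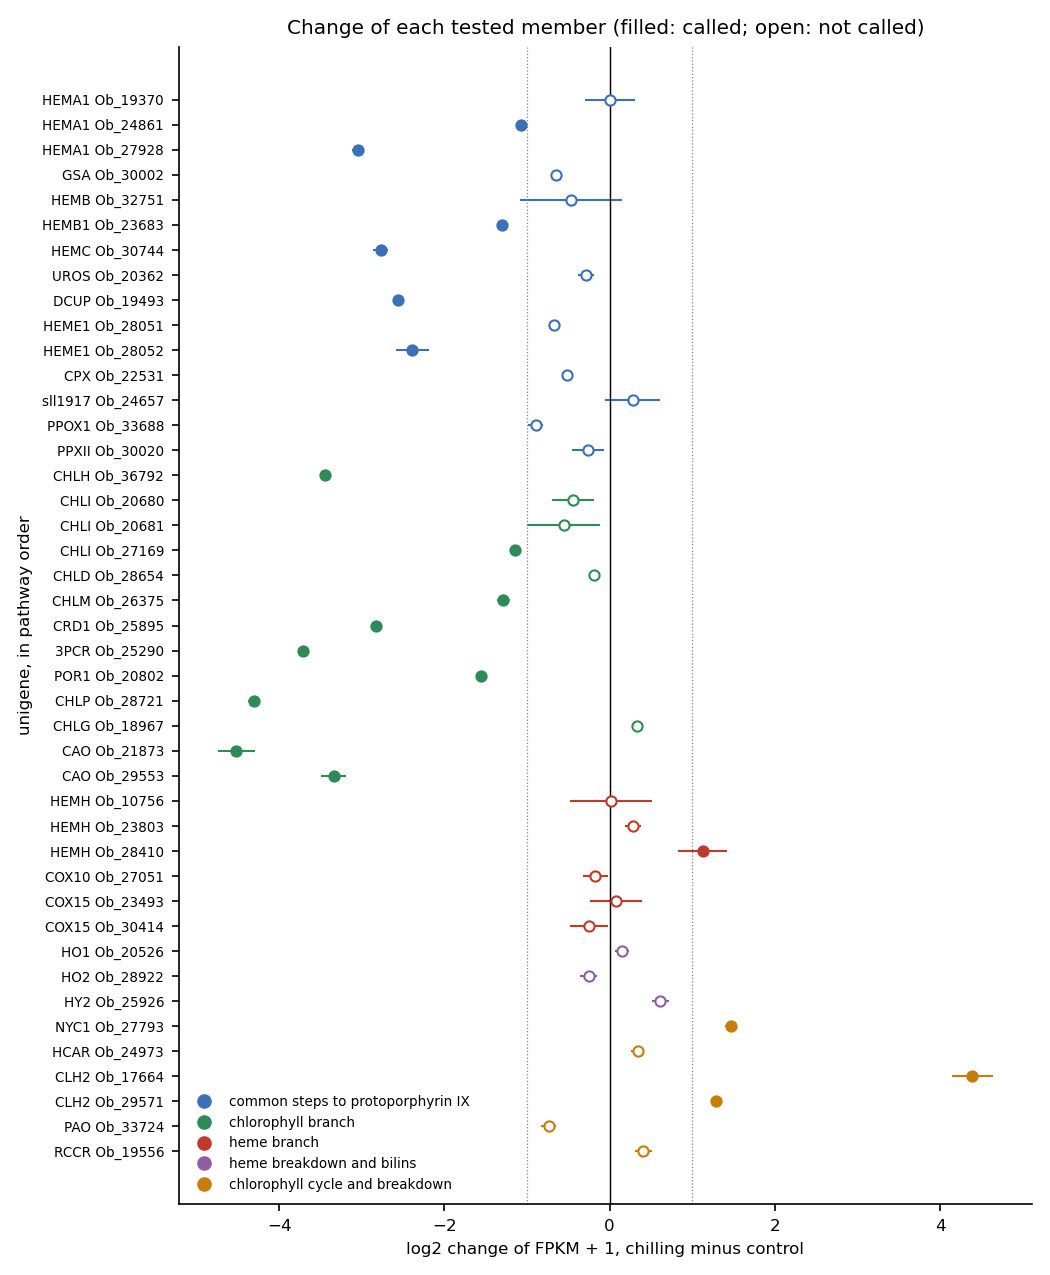
Log2 change of FPKM + 1 (horizontal axis, chilling minus control) for the 43 tested unigenes in pathway order, coloured by section of the pathway. Bars are 95% confidence intervals from limma, filled circles are called unigenes and dotted lines mark a log2 change of 1 in either direction. The filled circles of the common steps and the chlorophyll branch all lie to the left of 0, and those of the heme branch and of chlorophyll turnover to the right.

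Summed over the pathway, the members fell from FPKM 10716 and 10679 in the control libraries to 3779 and 3755 after chilling. This was 1.22% of the summed FPKM of both control libraries and 0.489% and 0.486% of that of the chilling libraries. Most of the level lay in the chlorophyll branch, whose 13 unigenes summed to 6860 ± 14.8 in control leaves (SD, n = 2) and 1427 ± 1.18 after chilling, a 4.81-fold lower level. The 17 unigenes of the common steps went from 3082 ± 26.9 to 1145 ± 6.74, which is 2.69-fold lower. The other sections were smaller and moved little or upward. The heme branch summed to 122 in the control and 140 after chilling, heme breakdown and bilin synthesis to 202 and 226, and chlorophyll turnover and breakdown to 431 and 829, 1.92-fold higher. With 2 libraries against 2, an exact two-sided permutation test can give no p smaller than 1 in 3, so these sums were not tested.

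**Figure D2:**
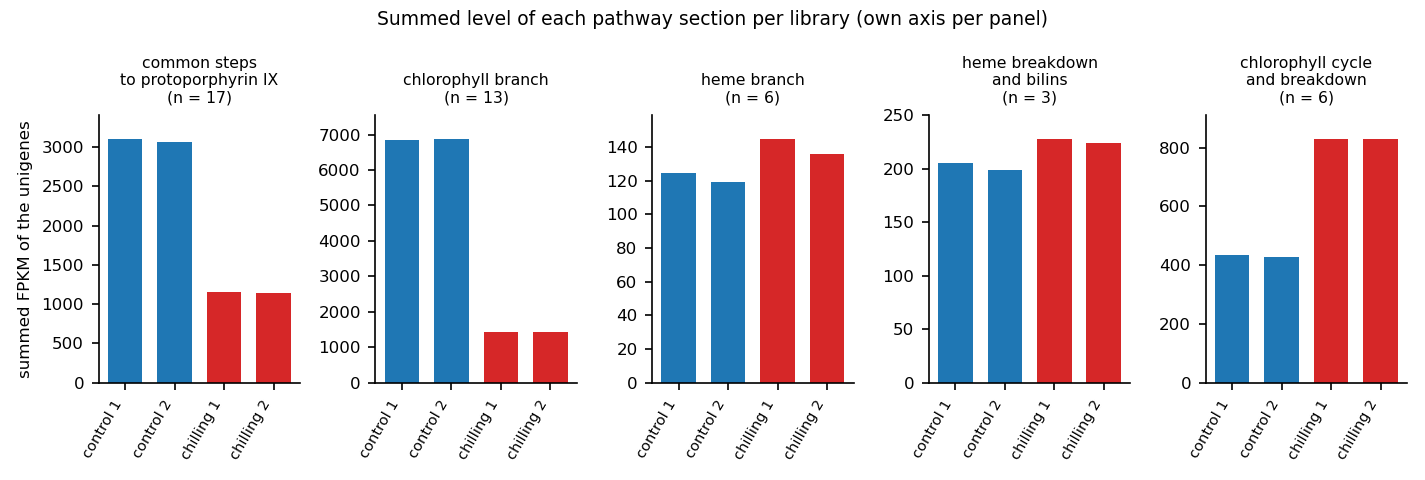
Summed FPKM (vertical axis, a separate scale in each panel) of the unigenes in each section of the pathway, with a bar for each library and n the number of unigenes. The chilling bars of the chlorophyll branch stand near 1427 against 6860 in the control, and those of chlorophyll turnover and breakdown near 829 against 431.

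The entry into the pathway is glutamyl-tRNA reductase, which commits glutamate to tetrapyrroles and is the step at which plants set the rate of 5-aminolevulinate formation. It was represented by 3 members that match HEMA1 of cucumber. Of these, Ob_27928 had an FPKM of 253 and 250 in the control libraries and 29.8 and 29.1 after chilling. It was the most abundant HEMA1 unigene in the control and fell below the next, 8.54-fold lower (log2 change -3.05 ± 0.03 SE, adjusted p = 8.7e-09 from limma). Ob_24861 stood at 183 in both control libraries and at 87.1 and 86.1 after chilling. It lay just past the 2-fold limit (2.11-fold lower, log2 change -1.07 ± 0.02 SE) and lost its call when values were rescaled to TPM. The remaining unigene, Ob_19370, was low in all libraries, with a mean FPKM of 6.06 and 6.08, and its groups overlapped. Within a library, Ob_27928 was 1.37 times as high as Ob_24861 in the control and 0.340 times as high after chilling. The enzyme as a whole, summed over its 3 members, was 3.61-fold lower. A further unigene with the same match, Ob_19371, is not a member. Its FPKM was 7.64 and 6.33 in the control and 6.79 and 9.56 after chilling, and it was not called.

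Glutamate-1-semialdehyde aminotransferase, which completes 5-aminolevulinate, was less affected. The unigene GSA (Ob_30002) had an FPKM of 469 in both control libraries and 296 and 299 after chilling, 1.58-fold lower and not called (log2 change -0.66 ± 0.02 SE, adjusted p = 2.4e-07 from limma). The next enzyme, 5-aminolevulinate dehydratase, joins 5-aminolevulinate in pairs to porphobilinogen. HEMB1 (Ob_23683) fell from 336 and 340 to 139 and 133, 2.48-fold (log2 change -1.31 ± 0.03 SE, adjusted p = 1.2e-07 from limma). Porphobilinogen deaminase strings porphobilinogen into a linear tetrapyrrole. Its unigene HEMC (Ob_30744) fell further, from 222 and 215 to 32.1 and 30.1, which is 7.03-fold lower (log2 change -2.77 ± 0.04 SE, adjusted p = 3.1e-08 from limma). Uroporphyrinogen-III synthase, which closes the ring, followed it in the pathway but not in the size of the difference: UROS (Ob_20362) averaged 58.0 in the control and 47.3 after chilling and was not called.

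Uroporphyrinogen decarboxylase trims the side chains of the ring and had 3 members that behaved differently. DCUP (Ob_19493), among the most abundant members in the control, had an FPKM of 995 and 979 in the control libraries and 166 and 165 after chilling, 5.96-fold lower (log2 change -2.57 ± 0.02 SE, adjusted p = 1.6e-09 from limma). HEME1 (Ob_28052) fell in a similar proportion from a lower level, from 60.2 and 54.1 to 10.7 and 9.41, 5.67-fold lower (log2 change -2.39 ± 0.08 SE, adjusted p = 1.4e-06 from limma). The other HEME1 unigene, Ob_28051, averaged 203 and 127, 1.59-fold lower and not called. The ratio of DCUP to this unigene within a library dropped from 4.86 to 1.30. Ob_28051 and Ob_28052 have neighbouring identifiers and match the same protein, so they may be close copies or pieces that share reads, and how these were divided cannot be seen in FPKM.

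The last common steps showed smaller differences, and none of their unigenes was called. Coproporphyrinogen oxidase CPX (Ob_22531) averaged 198 in the control and 138 after chilling. Protoporphyrinogen oxidase makes protoporphyrin IX, and its unigene PPOX1 (Ob_33688), with a match to the plastid enzyme, averaged 89.2 and 47.5, a 1.88-fold difference just short of the limit. The unigene that matches the mitochondrial form, PPXII (Ob_30020), averaged 18.8 and 15.6 (adjusted p = 0.027 from limma). The remaining 4 unigenes of the common steps were all under a mean FPKM of 5, among them the 2 too low to test, GSA (Ob_41630) and CPX (Ob_38097).

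Magnesium chelatase opens the chlorophyll branch and needs 3 subunits, and these differed sharply in how much they changed. The porphyrin-binding subunit CHLH (Ob_36792) had an FPKM of 349 in both control libraries and 30.9 and 31.2 after chilling, 11.2-fold lower (log2 change -3.45 ± 0.03 SE, adjusted p = 2.8e-09 from limma). The ATPase subunit CHLI (Ob_27169) stood at 633 in both control libraries and at 289 and 284 after chilling, 2.21-fold lower (log2 change -1.14 ± 0.02 SE), and lost its call under TPM. CHLD (Ob_28654), the subunit that links the other two, had an FPKM of 175 and 177 in the control and 154 and 155 after chilling. This difference of 1.14-fold was not called (log2 change -0.19 ± 0.02 SE, adjusted p = 0.00045 from limma). Within a library, CHLH transcripts were 1.98 times as abundant as CHLD transcripts in the control and 0.201 times after chilling, while CHLI stayed above CHLD, at 3.60 and 1.86 times. The 2 further CHLI unigenes, Ob_20680 and Ob_20681, were under FPKM 10 in all libraries and not called.

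The following enzymes build the chlorophyllide ring, and every member for them fell. Magnesium protoporphyrin IX methyltransferase CHLM (Ob_26375) had an FPKM of 109 and 112 in the control and 44.6 in both chilling libraries, 2.47-fold lower (log2 change -1.29 ± 0.03 SE, adjusted p = 3.4e-07 from limma). The cyclase CRD1 (Ob_25895) closes the additional ring that sets chlorophylls apart from heme. It was the most abundant member, at 3116 and 3114 in the control, and fell 7.13-fold to 437 and 438 (log2 change -2.83 ± 0.01 SE, adjusted p = 1.4e-10 from limma). No other member was as high in the control, and CRD1 was still the highest of them after chilling.

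Protochlorophyllide reductase carries out the light-requiring step of chlorophyll synthesis in flowering plants. Its 2 unigenes exchanged their order. The one matching the pea enzyme, 3PCR (Ob_25290), had an FPKM of 1247 and 1248 in the control and 94.6 and 94.4 after chilling, 13.2-fold lower (log2 change -3.71 ± 0.02 SE, adjusted p = 2.5e-10 from limma). POR1 (Ob_20802) fell from 441 in both control libraries to 149 and 150, 2.95-fold (log2 change -1.55 ± 0.02 SE, adjusted p = 1.3e-08 from limma). The ratio of 3PCR to POR1 was 2.83 in both control libraries, and 0.636 and 0.627 after chilling, so that POR1 became the more abundant form.

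**Figure D3:**
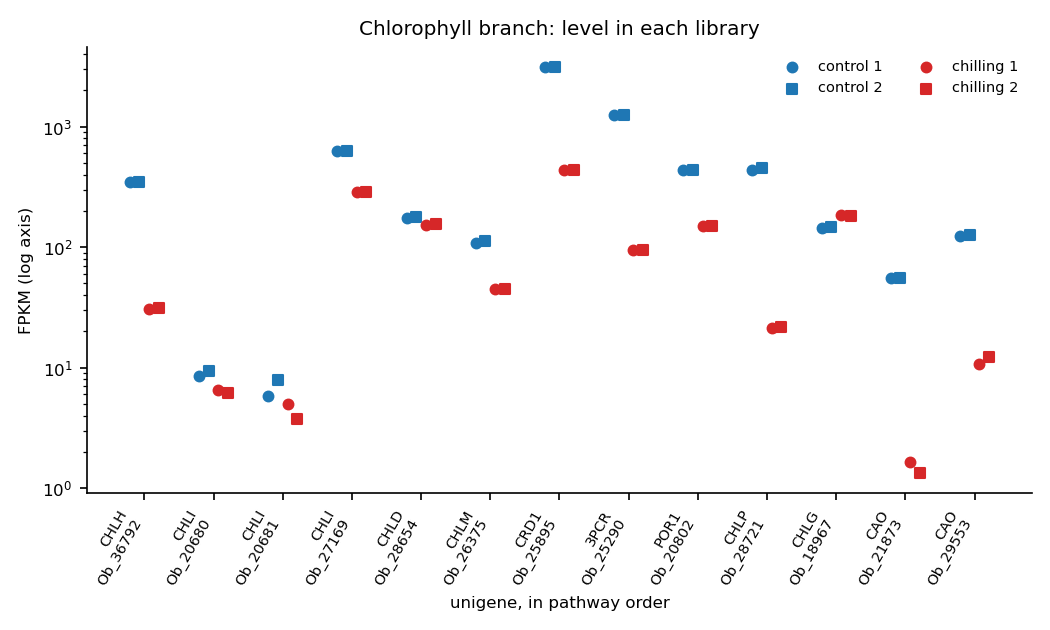
FPKM (vertical axis, log scale) of the 13 unigenes of the chlorophyll branch in pathway order, with control libraries in blue and chilling libraries in red, circles for replicate 1 and squares for replicate 2. All but CHLG lie lower after chilling, from CHLD with a 1.14-fold difference to CAO Ob_21873 with a 37.6-fold difference.

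The last steps attach the phytol tail and convert chlorophyll a to b. Geranylgeranyl reductase CHLP (Ob_28721) makes the phytyl chain, which also serves tocopherol and phylloquinone synthesis. It had an FPKM of 441 and 450 in the control and 21.4 and 21.7 after chilling, 20.7-fold lower (log2 change -4.31 ± 0.03 SE, adjusted p = 1.7e-09 from limma). Chlorophyll synthase CHLG (Ob_18967), which joins this chain to the ring, was the exception within the branch. It averaged 146 in the control and 183 after chilling, 1.26-fold higher and not called (log2 change 0.33 ± 0.02 SE, adjusted p = 3.9e-05 from limma). The ratio of CHLP to CHLG within a library went from 3.05 to 0.118.

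Chlorophyllide a oxygenase is the enzyme of chlorophyll b formation, and both of its member unigenes fell more than 10-fold. CAO (Ob_21873), with the largest fall of any member, had an FPKM of 55.8 and 56.0 in the control and 1.64 and 1.33 after chilling, 37.6-fold lower (log2 change -4.52 ± 0.10 SE, adjusted p = 1.5e-07 from limma). CAO (Ob_29553) fell from 125 and 126 to 10.8 and 12.2, 10.9-fold (log2 change -3.34 ± 0.06 SE, adjusted p = 9.0e-08 from limma). Another unigene with the same Swiss-Prot match, Ob_21874, has no KEGG pathway in the annotation and is not a member. Its FPKM was 73.6 and 73.5 in the control and 2.08 and 2.26 after chilling, 33.9-fold lower (log2 change -4.56 ± 0.07 SE, adjusted p = 4.6e-08 from limma). Ob_21873 and Ob_21874 have neighbouring identifiers and may likewise be pieces or copies that share reads. In all, 7 unigenes outside the entry share a Swiss-Prot match with a member, and 5 of them were tested. The calls were 2 lower, Ob_21874 and the low DCUP unigene Ob_11786, and none higher, beside 13.8% lower and 11.9% higher over all tested unigenes. The tested ones that were not called match HEMA1, COX15 and CHLM.

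The 8-vinyl reductase DVR (Ob_31923), which reduces a side chain of the ring before phytol is attached, also lies outside the pathway entry and was picked by name after its values were seen. Its mean FPKM fell from 215 to 37.5, 5.72-fold, (log2 change -2.49 ± 0.03 SE, adjusted p = 1.5e-08 from limma). Siroheme synthase, an enzyme of a side branch that leaves the common steps before protoporphyrin IX, was picked in the same way: cysG2 (Ob_07922) fell from 25.5 and 27.8 to 7.93 and 7.14 (log2 change -1.70), while the unigene cysG (Ob_34353) averaged 10.3 and 9.34 and was not called.

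On the iron side of the branch point the levels were low and mostly near those of the control. Ferrochelatase inserts iron into protoporphyrin IX. Its main unigene HEMH (Ob_23803) had an FPKM of 81.5 and 77.3 in the control and 99.6 and 94.5 after chilling, 1.22-fold higher and not called (log2 change 0.29 ± 0.04 SE, adjusted p = 0.001 from limma). The minor HEMH unigene Ob_28410 was higher in both chilling libraries, at 7.54 and 7.66 against 2.88 and 2.98, a 2.59-fold rise (log2 change 1.13 ± 0.12 SE, adjusted p = 0.0003 from limma). That call was lost when any of the 4 libraries was left out, with an adjusted p between 0.016 and 0.025 from limma, and the adjusted p ranged from 8.9e-05 to 0.025 over all alternatives. The remaining HEMH unigene, Ob_10756, was under FPKM 2 in every library. CHLH and the main ferrochelatase unigene stand on either side of the branch point, and their ratio within a library was 4.29 and 4.51 in the control and 0.31 and 0.33 after chilling.

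Heme O synthase and heme A synthase modify heme for cytochrome c oxidase of the respiratory chain. COX10 (Ob_27051) averaged 18.7 in the control and 16.4 after chilling, COX15 (Ob_30414) 13.5 and 11.2, and COX15 (Ob_23493) 6.19 and 6.60, and none was called. Together with PPXII these are the 4 members with a match to a mitochondrial enzyme. Their summed FPKM was 58.2 and 56.2 in the control and 52.5 and 47.1 after chilling.

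Heme oxygenase opens the heme ring to biliverdin. HO1 (Ob_20526), the most abundant unigene of this section, had an FPKM of 135 and 127 in the control and 147 and 143 after chilling (log2 change 0.15 ± 0.04 SE, adjusted p = 0.0104 from limma) and was not called. HO2 (Ob_28922), whose best match is described as a probable inactive heme oxygenase, had an FPKM of 40.6 and 41.3 in the control and 34.2 in both chilling libraries and was not called. Phytochromobilin synthase HY2 (Ob_25926) makes the chromophore of phytochrome. Its mean FPKM was 30.3 in the control and 46.9 after chilling, 1.55-fold higher and under the 2-fold limit (log2 change 0.61 ± 0.04 SE, adjusted p = 3.6e-05 from limma).

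**Figure D4:**
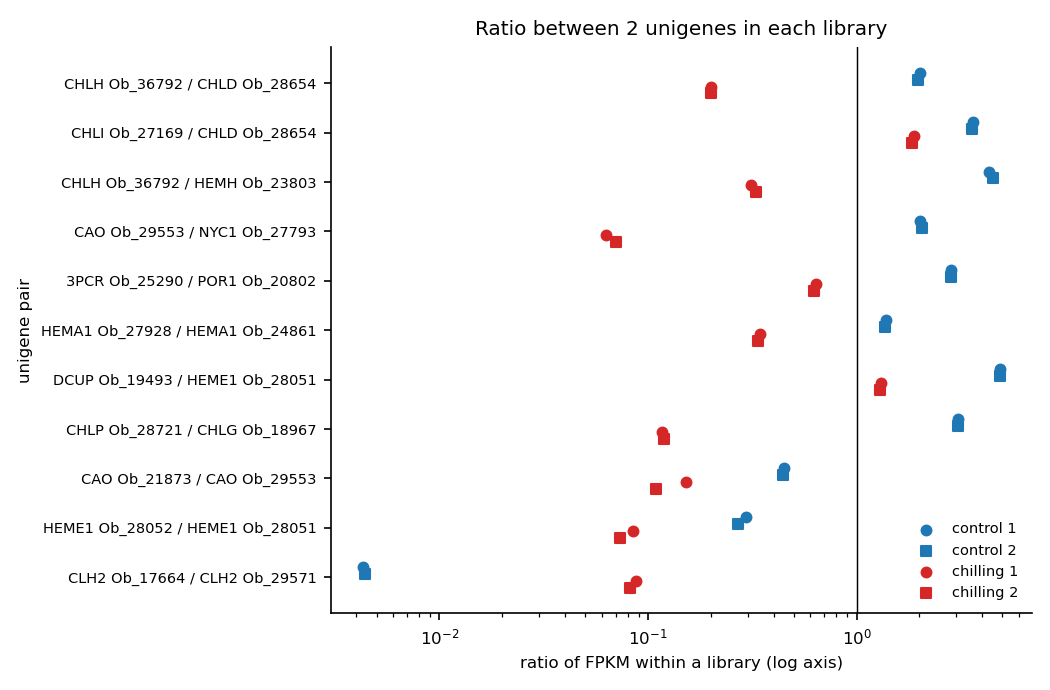
Ratio of FPKM between pairs of unigenes within each library (horizontal axis, log scale), with control libraries in blue and chilling libraries in red. For the upper 10 pairs the ratio is lower after chilling, as for CHLH to HEMH at 4.29 and 4.51 against 0.31 and 0.33. For CLH2 Ob_17664 to Ob_29571 it is higher. The pairs were picked by hand. Several set a unigene that fell against another that changed little or rose, so the separation of the groups says little and was not tested.

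In chlorophyll turnover and breakdown 3 of 6 unigenes were called higher and none lower, beside 11.9% and 13.8% of all tested unigenes. The log2 change was above 0 in 5 of the 6. Chlorophyll b reductase NYC1 (Ob_27793) starts the return of chlorophyll b to a. Its FPKM was 62.3 and 61.2 in the control and 171 and 174 after chilling, 2.79-fold higher (log2 change 1.47 ± 0.03 SE, adjusted p = 9.4e-08 from limma). The enzyme that completes this return, 7-hydroxymethyl chlorophyll a reductase HCAR (Ob_24973), had an FPKM of 75.6 and 76.2 in the control and 98.5 and 94.5 after chilling and was not called (1.27-fold higher, log2 change 0.34 ± 0.03 SE, adjusted p = 0.00017 from limma). CAO and NYC1 act in opposite directions between chlorophylls a and b. The ratio of CAO (Ob_29553) to NYC1 was 2.00 and 2.06 in the control and 0.0631 and 0.0702 after chilling. A unigene for the NYC1-like reductase NOL (Ob_21723), picked by name after its values were seen, averaged 47.8 and 55.4 and was not called.

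Chlorophyllase cleaves the phytol tail from chlorophyll, and both of its unigenes, matches to CLH2, rose. The abundant Ob_29571 had an FPKM of 175 and 169 in the control and 423 and 422 after chilling, 2.46-fold higher (log2 change 1.29 ± 0.02 SE, adjusted p = 6.6e-08 from limma). Ob_17664 was barely detected in the control, at 0.76 and 0.75, and reached 37.1 and 34.7 after chilling (log2 change 4.39 ± 0.11 SE, adjusted p = 2.6e-07 from limma). The ratio of its mean levels, 47.5-fold higher, rests on control values below FPKM 1. Most of the rise in the summed level of the enzyme, from 173 to 458, came from Ob_29571.

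The enzymes that open the ring and act on its product were not called. Pheophorbide a oxygenase PAO (Ob_33724), which commits chlorophyll to breakdown, averaged 80.3 in the control and 47.7 after chilling, 1.68-fold lower and not called (log2 change -0.74 ± 0.04 SE, adjusted p = 6.9e-06 from limma). Red chlorophyll catabolite reductase RCCR (Ob_19556), which acts on the opened ring, averaged 40.3 and 53.9, 1.34-fold higher and not called.

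Genes that act with the pathway but lie outside its KEGG entry were counted in 4 lists built from words in the Swiss-Prot descriptions. Of 71 unigenes in these lists 65 were tested, 32 were called lower and 4 higher. Over all tested unigenes 13.8% were called lower and 11.9% higher. Among those with a mean FPKM of at least 10 the shares were 11.2% and 10.4%. Among 21 tested regulators of synthesis, 7 were lower and 1 higher, with a median log2 change of 0.03. GUN4, which binds porphyrin and stimulates magnesium chelatase, was the most abundant, and its unigene (Ob_23152) fell from 199 and 193 to 76.6 and 72.4 (log2 change -1.38 ± 0.04 SE, adjusted p = 3.5e-07 from limma). PIF7 (Ob_21240), a phytochrome-interacting transcription factor, fell from 110 and 109 to 8.64 and 9.05, 12.4-fold (log2 change -3.49 ± 0.05 SE, adjusted p = 2.8e-08 from limma). PIF4 (Ob_23610), of the same family, fell 4.47-fold.

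GLK1 and the GATA factors promote chloroplast development and chlorophyll synthesis genes in *Arabidopsis*. The GLK1 unigene Ob_25714 had an FPKM of 26.1 and 27.0 in the control and 5.57 and 5.26 after chilling (log2 change -2.10 ± 0.08 SE, adjusted p = 2.0e-06 from limma). GATA22 (Ob_18722) fell from 35.7 and 37.5 to 8.01 and 7.90, while its neighbour Ob_18723, with the same match, averaged 22.8 and 25.5 and was not called. The higher call was a FAR1 unigene at low level, Ob_41372, at 0.35 and 1.37 in the control and 4.96 and 5.24 after chilling. It lost its call in 3 of the 4 fits that left out a library, with an adjusted p of 0.016 to 0.065 from limma. FLU (Ob_18814), which restrains glutamyl-tRNA reductase in *Arabidopsis* and was named after its values were seen, had an FPKM of 138 and 134 in the control and 78.1 and 75.9 after chilling and was not called.

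The proteins that carry chlorophyll in the antenna formed the list with the most calls. Of 23 unigenes for chlorophyll a-b binding proteins, an early light-induced protein and the factors that deliver them to the thylakoid, 15 were lower and none higher. All 23 averaged above FPKM 10, a level at which 11.2% of all tested unigenes were called lower and 10.4% higher. The median log2 change of the list was -1.84. Its summed FPKM averaged 28234 in the control and 5268 after chilling. The steepest fall was that of CAB36 (Ob_20246), from 2505 and 2519 to 48.5 and 47.5 (log2 change -5.68 ± 0.02 SE, adjusted p = 1.4e-10 from limma), followed by LHCA4 (Ob_09321) at -4.77, LHCA4 (Ob_09322) at -4.26 and CAB36 (Ob_20245) at -4.25 on the log2 scale. The most abundant, CAB21 (Ob_27974), had a log2 change of -2.41. Not every unigene of a chlorophyll-binding protein was called, and those that follow were named after their values were seen. LHCA4 Ob_18120 averaged 190 in the control and 144 after chilling (log2 change -0.40). The chlorophyll a-b binding protein Ob_23161 averaged 183 and 177, and the early light-induced protein ELIP1 (Ob_23117) 112 and 66.6. The delivery factors of the ALB3 and FFC type, 5 unigenes, were not called either.

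**Figure D5:**
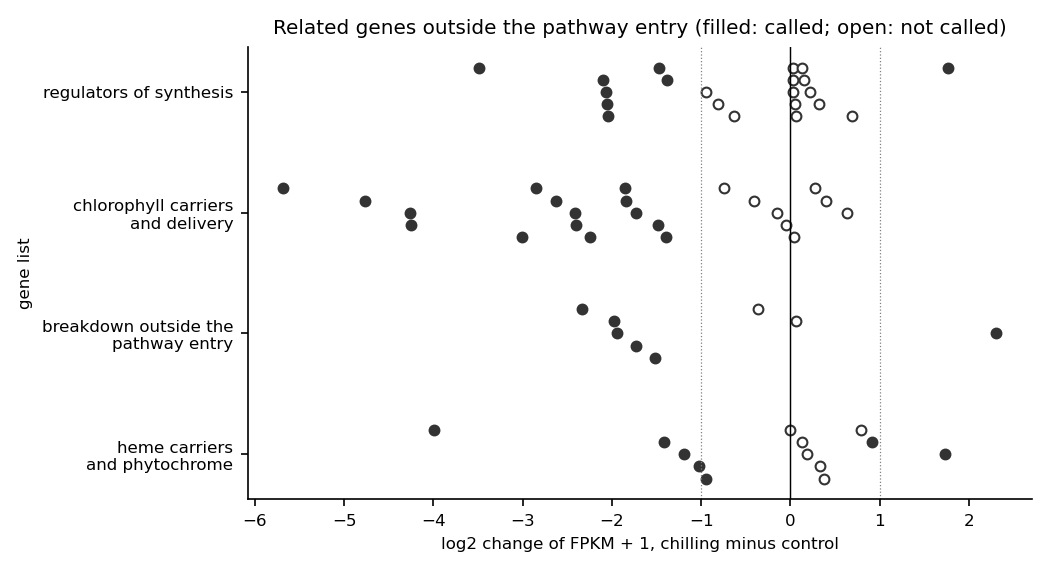
Log2 change of FPKM + 1 (horizontal axis, chilling minus control) of the tested unigenes in 4 lists of genes outside the pathway entry, a circle for each unigene, filled where called, with dotted lines at a log2 change of 1 in either direction. The antenna list has 15 filled circles, all to the left of 0, and the breakdown list has 5 to the left and 1 to the right.

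Breakdown genes outside the pathway entry were mostly lower. The test called 5 of 8 lower and 1 higher, beside 13.8% and 11.9% of all tested unigenes. A difference from the 6 unigenes inside the entry was not tested. STAY-GREEN proteins remove magnesium from chlorophyll. The STAY-GREEN LIKE unigenes SGRL Ob_27587, at 233 and 232 in the control and 48.3 and 42.6 after chilling (log2 change -2.33 ± 0.06 SE, adjusted p = 2.7e-07 from limma), and Ob_27588 (log2 change -1.73) fell. So did SGR1 (Ob_15520, log2 change -1.51), named after its values were seen, which lost its call when any library was left out (adjusted p of 0.013 to 0.015 from limma). The STAY-GREEN unigene SGR Ob_23778, also named after its values were seen, averaged 15.9 in the control and 16.6 after chilling. It was not called (log2 change 0.06, adjusted p = 0.42 from limma). Pheophytinase, which cleaves phytol from the magnesium-free pigment, had unigenes called in both directions. PPH Ob_28605 and Ob_24692 fell, with log2 changes of -1.98 and -1.94. PPH Ob_34435 rose 5.32-fold from 11.3 and 9.77 to 55.7 and 56.4 (log2 change 2.31 ± 0.08 SE, adjusted p = 1.0e-06 from limma).

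Among 13 tested unigenes for heme carriers and phytochrome, 5 were lower and 2 higher, and the median log2 change was 0.13. Over all tested unigenes 13.8% were lower and 11.9% higher, so the count of higher calls is close to that share. The largest change was that of a plastid heme-binding-like protein that matches At3g10130 (Ob_25561), from 59.1 and 52.6 to 3.10 and 2.09 (log2 change -3.99 ± 0.14 SE, adjusted p = 1.6e-06 from limma). Another unigene with this match, Ob_15014, had a log2 change of -1.19, and EID1 (Ob_27237), an F-box protein associated with phytochrome A, one of -1.42. A further At3g10130 match, Ob_20334, named after its values were seen, averaged 15.9 in the control and 15.8 after chilling and was not called. The most abundant unigene of the list, the heme-binding protein Hebp2 Ob_16988, fell from 75.0 and 71.0 to 34.6 and 36.1 (log2 change -1.03) and lost its call under TPM. Hebp2 Ob_19725, with nearly the same mean level over the 4 libraries and named after its values were seen, averaged 47.7 and 60.6 and was not called. The most abundant phytochrome unigene, PHYB (Ob_36132), was named after its values were seen. It averaged 16.6 in the control and 18.2 after chilling, its groups overlapped and it was not called (adjusted p = 0.27 from limma). The less abundant PHYB (Ob_14186) had an FPKM of 3.13 and 3.08 in the control and 6.37 and 7.10 after chilling (log2 change 0.91). PHYE (Ob_19215), named after its values were seen, had a log2 change of -0.95. HEBP2 (Ob_20383), at 3.73 and 2.91 in the control and 12.8 and 13.9 after chilling, had a log2 change of 1.74. The calls of PHYB and PHYE were lost when any library was left out, those of HEBP2 and EID1 when either chilling library was and that of Ob_15014 when either control library was, with adjusted p-values of 0.0101 to 0.0404 from limma.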

How the data were processed

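The authors trimmed the reads (bases under Q20, adaptors, duplicates), assembled the 4 libraries together with Trinity, kept the longest isoform of each gene of at least 300 bp as a unigene, and annotated it with BLASTX (expectation value 1e-05). The deposited values are FPKM from RSEM, rounded to 2 decimals. The authors' lists of changed genes hold fold changes, p-values and FDR from edgeR, and 8 columns of these lists that repeat FPKM were not used. From the FPKM, log2(FPKM + 1) was fitted with limma 3.58.1 (R 4.3.3, treatment as the sole term, trended prior variance, 2 residual degrees of freedom), with Benjamini-Hochberg adjustment over 33036 unigenes. Count models were not run on FPKM. P-values rest on the spread between only 2 libraries per treatment, combined with the prior variance from all tested unigenes (4.41 prior degrees of freedom). The procedure was run on simulated data with independent noise and far fewer changed unigenes than were called here. That run cannot show how well 2 libraries per treatment capture the spread between plants. Members and lists were chosen with earlier results of these data known. Sections of the pathway follow KEGG orthology numbers, and that of HCAR was added after the annotation was seen. Per-library values and tests are given for called members and the most abundant uncalled member of each section, and outside the entry for up to 4 called unigenes per list and direction. Alternatives were pseudocount, filters, TPM or median-ratio scaling, a replicate block, no trend, other thresholds and leaving out each library. A 2-fold difference without a p was added after seeing the data. Python 3.11.15 and pandas 2.3.3 handled the tables. Protein and transcript sequences of this species were not used here.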

Additional observations from a re-analysis of the deposited data

How the results depend on the processing

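Of the 19 calls among the members, all were kept under a pseudocount of 0.1, no filter, a filter at a mean FPKM of 5, median-ratio scaling, no trend, a 2-fold limit after taking log2(FPKM + 1), a looser adjusted p of 0.05 and a 2-fold difference without a p. Rescaling to TPM moved the median of all tested unigenes by 0.15 on the log2 scale, raised the share of higher calls over all unigenes from 46.3% (3917 higher, 4548 lower) to 57.9% (5051 and 3677), and gave 4 higher and 13 lower members. HEMA1 Ob_24861 (-0.90) and CHLI Ob_27169 (-0.96) then fell short of the 2-fold limit, the member median was -0.33, and no member changed sign. Leaving out a library gave 3 higher and 15 lower members each time, with HEMH Ob_28410 lost, a median of -0.51 to -0.39, 1 to 3 higher and 27 to 29 lower calls among the related genes outside the entry (4 and 32 with all libraries), and 2833 to 3250 calls over all unigenes instead of 8465, as fewer samples were fitted. A filter at a mean FPKM of 5 gave 4228 calls over fewer unigenes and 2 higher related genes. Of 40 calls on unigenes outside the entry, 32 to 40 were kept over all alternatives. The same-numbered libraries of both treatments share only a number: the correlation of their deviations was 0.0077 over 33035 unigenes. With the replicate block 7678 unigenes were called, and 4 members were higher and 15 lower, so no member call changed. A lone library in a treatment is assumed to vary like the other pair. The study lists more clean reads for the control libraries than for the chilling libraries. The reads behind each value are not known from FPKM, so precision at low levels cannot be given.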
